A study of Rattus norvegicus with 16 samples.

Results

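The bile, drug and lipid transporters were followed in rat hepatoma cells in which *Pdrg1* had been silenced. Members were taken by name as every gene on the array whose symbol begins with Abca to Abcg and a digit, Slco and a digit, Slc22a, Slc10a or Slc47a. This gave 95 genes, read by 114 probes, of the 26269 gene names on the array: 52 ABC transporters, 15 *Slco*, 19 *Slc22a*, 7 *Slc10a* and 2 *Slc47a* carriers. H35 is a rat hepatoma line, and *Pdrg1* (p53 and DNA damage-regulated gene 1) was silenced with short hairpin RNAs expressed from plasmids. CN-10 is a clone with stable expression of a negative control hairpin, 3-44 and 4-18 are stable clones with the shRNA3 and the shRNA4 sequence, and shRNA3T is an enriched pool after transient transfection of the shRNA3 plasmid. Every group, the control included, carried a plasmid and was selected with the antibiotic G418, and untransfected cells were not among the arrays. For the stable clones the paper describes a higher dose and further weeks of G418 than for the enriched cells. No control pool was among the arrays. Differences of shRNA3T from the clones are therefore also differences in selection and cloning. Each group was read on 4 one-color arrays from 4 biological replicates, and each stable group is 1 clone, so plasmid sequence and clone cannot be told apart.

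Hepatocytes take up bile acids, organic anions and organic cations from blood through Slc10a1, the Slco family and the Slc22a family, and export bile acids, phospholipid, sterols and conjugates across the canalicular membrane with ABC transporters that hydrolyse ATP. Other ABC proteins export conjugates back to blood, load cholesterol on lipoproteins or carry acyl-CoA into peroxisomes. Nuclear receptors such as Nr1h4 (FXR), Nr0b2 (SHP) and Nr1i2 (PXR) are known to set the transcription of many of these genes in liver.

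Values are log2 intensities after background correction and quantile normalization, so that a difference of 1 is 2-fold, and the levels of different probes are not comparable with each other. A probe counted as detected on an array when the scanner software flagged its spots as well above background, and a gene as detected in a group when 1 of its probes was so on each of the 4 arrays. A gene was called when a probe changed at least 2-fold with an adjusted p under 0.05 in the limma model of all 16 arrays. The 75th percentile of spot intensity was 1614 to 1946 on the 4-18 arrays and 2328 to 3692 on the other 12, between 53.1% and 74.3% of spots were well above background and none was saturated. Each group occupied 1 slide and the 4-18 slide was scanned on another day, so group and slide cannot be told apart. *Pdrg1* read 13.41, 13.88, 13.51 and 13.77 in CN-10, 11.57, 13.33, 13.34 and 13.25 in 4-18, 11.89, 12.86, 12.9 and 12.95 in 3-44, and 12.39, 12.9, 12.97 and 12.9 in shRNA3T. Every silenced array lay below the 4 CN-10 arrays, and the log2 differences of *Pdrg1* were -0.77 in 4-18, -0.99 in 3-44 and -0.85 in shRNA3T (limma adjusted p = 0.129, 0.105 and 0.143). Over the alternatives these adjusted p ran from 0.00647 to 0.349, 0.000306 to 0.438 and 0.000212 to 0.558, the lowest without replicate 1 of every group. Without 4-18 replicate 1, the lowest array, the 4-18 difference of *Pdrg1* was -0.33, and the adjusted p became 0.0086 in 3-44 and 0.0149 in shRNA3T. Of the 10 hepatocyte markers, 7 (*Alb*, *Ttr*, *Apob*, *Tf*, *Serpina1*, *Fgb* and *Ahsg*) were detected in all 4 groups, and *Ttr* was called higher in each silenced group. In 4-18 *Apoa1*, *Apob* and *Tf* were called lower and *Ahsg* both ways by different probes, while *Apoa1* was also called higher in 3-44, and *Serpina1* and *Fgb* higher in shRNA3T. The mean log2 level of the hepatocyte list ran from 12.85 to 13.19 over the CN-10 arrays, 12.63 to 13.17 in 4-18, 13.31 to 14.08 in 3-44 and 13.44 to 13.85 in shRNA3T, and its part in the transporter results was not tested. Of markers of other cells, 3 of 5 leukocyte, 4 of 6 fibroblast, 2 of 5 cholangiocyte and 1 of 3 endothelial genes were detected in CN-10, and *Col1a1* and *Cdh5* in all groups. None of these 4 lists had a called gene, and *Ptprc*, *Cd163*, *Dcn*, *Epcam*, *Spp1* and *Pecam1* were detected on no array. Of 4 markers of intestinal or renal epithelium, 3 were detected in CN-10, 3-44 and shRNA3T and 2 in 4-18. *Vil1* and *Cdx2* were detected in every group and *Slc34a1* on no array. Of 4 fetal liver or hepatoma markers, 2 were detected in CN-10, 3-44 and shRNA3T and 1 in 4-18, with *Afp* alone in every group. Neither list had a called gene.

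Of the 95 members, 53 (55.8%) were detected in 1 group or more, against 62.7% of all genes. In bulk RNA, fewer cells with a transcript and less of it per cell cannot be told apart. There were 49 detected members in CN-10, 49 in 3-44, 50 in shRNA3T and 39 in 4-18, whose arrays were the dimmest. Over all genes the numbers detected were 15838, 15529, 15476 and 12078 in the same order, and the part of brightness in the lower number was not tested. By family these were 32 of 52 ABC genes, 13 of 19 *Slc22a*, 5 of 15 *Slco*, 3 of 7 *Slc10a* and 0 of 2 *Slc47a* genes. A further 18 members (18.9%, against 17.1% of all genes) were detected on no array. They include *Abcb11*, the canalicular bile salt export pump, *Abcg8*, the partner of *Abcg5* in sterol export, *Slc10a2*, the ileal bile acid transporter, and *Slc22a8*, a renal organic anion transporter. *Slc10a1*, the sodium-dependent bile acid uptake carrier of hepatocytes, was detected on 1 array of shRNA3T, and its level was 6.35 ± 0.03 (SD, n = 4) in CN-10.

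**Figure D1:**
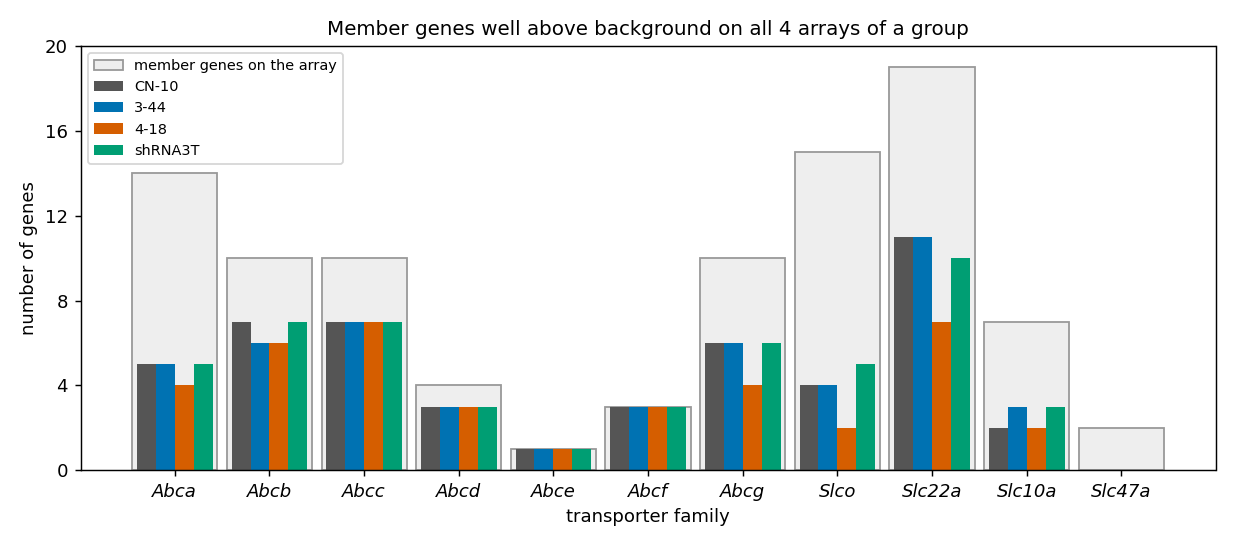
Number of member genes per transporter family (x axis, families by symbol) detected in each group; grey boxes are the members on the array and coloured bars the 4 groups. In 4-18 and CN-10 these were 28 and 32 ABC, 7 and 11 *Slc22a*, 2 and 4 *Slco*, and 2 and 2 *Slc10a* genes, while over all genes they were 12078 and 15838.

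Most members were called in no comparison between groups, and many of these were detected in no group. The question was whether silencing *Pdrg1* moved these genes, and each silenced group was set against CN-10, which all 3 comparisons share. In 4-18, 4 members were higher (4.21%, against 2.79% of all genes called higher) and 5 were lower (5.26%, against 3.73% of all genes called lower). In 3-44, 2 members were higher (2.11%, against 0.746% of all genes) and 0 were lower, where 0.826% of all genes were lower and 5 members were lower with an adjusted p under 0.05 in limma at any size. In shRNA3T, 1 member was higher (1.05%, against 1.23% of all genes) and 0 were lower (1.25% of all genes), with 5 again lower at any size in limma. At 2-fold and an unadjusted p under 0.05 in limma, in either direction, 9, 2 and 2 members passed in 4-18, 3-44 and shRNA3T, against 6.72%, 1.80% and 2.62% of all genes. The median log2 difference of the member probes was 0.00 in 4-18, -0.02 in 3-44 and 0.01 in shRNA3T. Among probes above background, the median absolute difference of members and of all probes was 0.31 and 0.34 in 4-18, 0.27 and 0.20 in 3-44, and 0.34 and 0.24 in shRNA3T. The members' median was thus below that of all probes in 4-18 and above it in 3-44 and shRNA3T. Without a limit on size, 13 of the 95 members were higher and 12 lower in 4-18 with an adjusted p under 0.05, where 12.4% and 13% of all genes were. In 3-44 these were 8 and 5 of the 95 members (3.85% and 4.94% of all genes), and in shRNA3T 15 and 5 of the 95 (5.44% and 7.53% of all genes).

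These counts moved with the scaling between arrays. With background-corrected signals scaled to the 75th percentile in place of quantiles, the median of all probes rose by 0.862 in 4-18 and 51 members were higher and 4 lower there, where 45.7% and 2.65% of all genes were. In 3-44 that scaling gave 1 and 0 members (0.632% and 0.621% of all genes) and in shRNA3T 2 and 0 (1.01% and 1.17%). With the software's processed signal scaled to that percentile, 6 members were higher and 6 lower in 4-18 (7.16% and 7.86% of all genes), 3 and 3 in 3-44 (0.936% and 2.21%) and 4 and 3 in shRNA3T (1.90% and 3.11%). Scaled to the median, it gave 12 and 4 in 4-18 (10.3% and 6.57% of all genes), 3 and 2 in 3-44 (1.20% and 1.72%) and 5 and 3 in shRNA3T (2.16% and 2.84%). The deposited values without scaling gave 2 and 12 in 4-18 (0.864% and 11.2% of all genes), 1 and 0 in 3-44 (0.221% and 0.525%) and 1 and 0 in shRNA3T (0.670% and 0.826%). In 4-18 the shift of the members toward higher or lower calls was also that of all genes. No gene called against CN-10 changed its direction under any of these scalings.

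**Figure D2:**
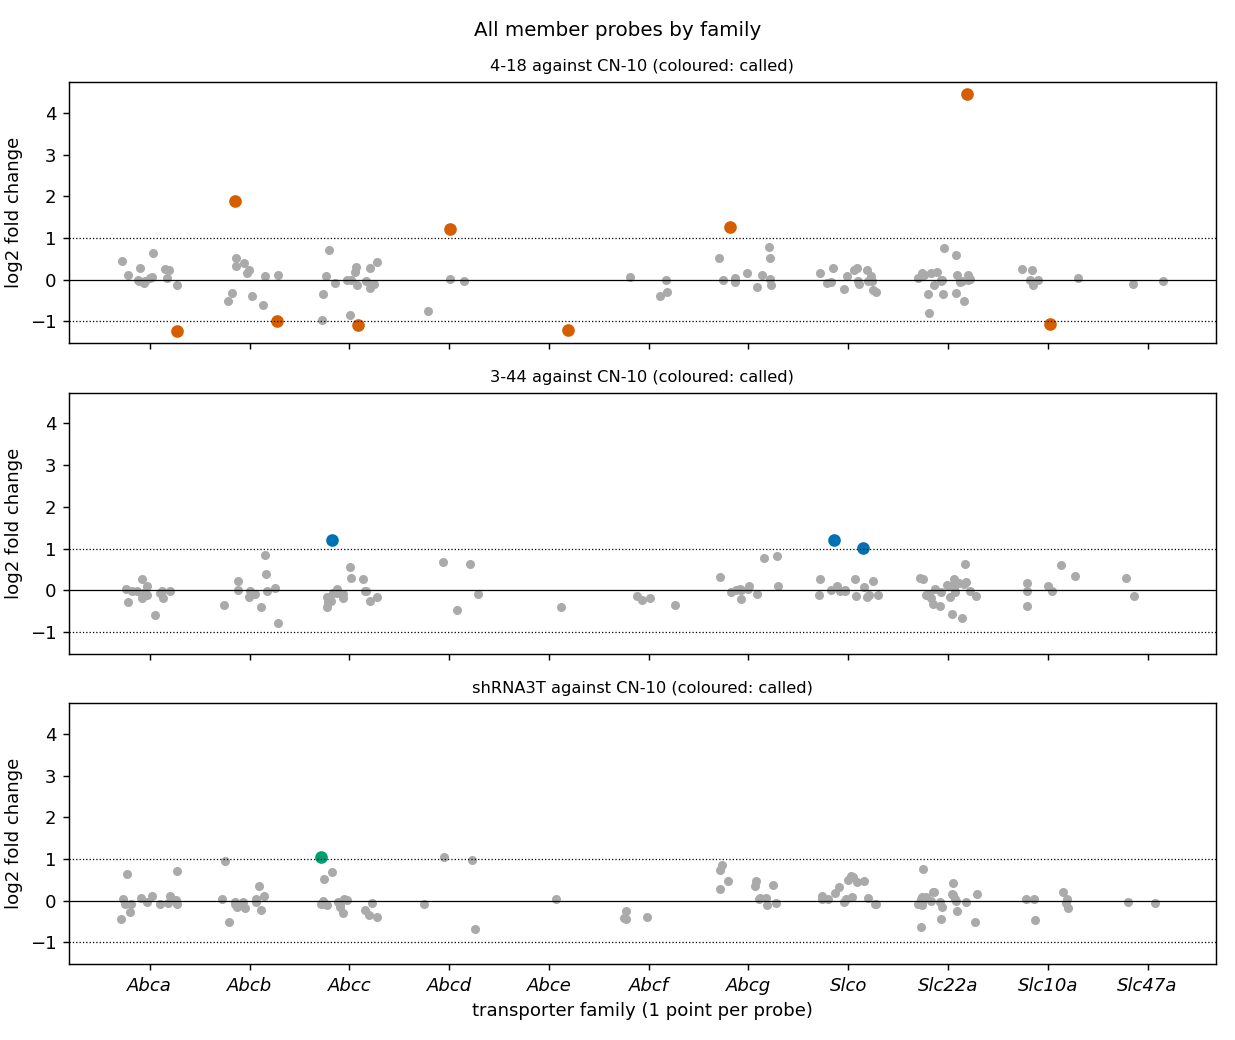
Log2 fold change against CN-10 (y axis) of each of the 114 member probes, by family (x axis), 1 panel per silenced group; coloured points passed the test, grey points did not, and dotted lines mark 2-fold. In 4-18 a single *Slc22a* point, *Slc22a12*, stands at a fitted 4.45 over background-level CN-10 signal (at least 21.3-fold by means as normalized here). There 9 genes carry colour, against 2 genes in 3-44 and 1 in shRNA3T.

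*Slc22a12* encodes the urate and organic anion exchanger URAT1, best known from the renal proximal tubule, and it was raised in 4-18. Its 4 arrays of 4-18 read 10.27, 11.06, 11.07 and 10.59. The CN-10 arrays read 6.24, 6.29, 6.29 and 6.38, those of 3-44 read 6.31, 6.51, 6.56 and 6.52, and those of shRNA3T read 6.39, 6.32, 6.19 and 6.23. The 4-18 arrays were far above all others, with no overlap. Signal was not well above background in CN-10 and shRNA3T, and in 3-44 the probe was detected on 1 array. As normalized here, its mean in 4-18 was therefore at least 21.3-fold higher than in CN-10 and at least 21.2-fold higher than in shRNA3T. This bound is set by the lowest signal well above background. It leaves out the spread between arrays and holds for this processing only. The limma adjusted p was 3.05e-11 against CN-10 and 3.28e-11 against shRNA3T. Against 3-44, where 1 of 4 arrays measured the probe, the fitted difference was 4.27 (adjusted p = 4.37e-11 by limma), which rests on background-level values on the other 3. It stayed called under all 28 alternatives, whose fitted values against CN-10 (4.07 to 9.03) also rest on background-level signal there and are no bounds. The sequence that carried this signal is given with its position on the minus strand of the rn4 build, chr1:209320994-209321053.
Slc22a12 A_64_P155059: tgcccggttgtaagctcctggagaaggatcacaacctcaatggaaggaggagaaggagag
Of 39 genes with a probe within 500 kb of it, 36 were detected in 1 group or more, 0 were higher in 4-18 (2.79% of all genes were) and 3 were lower (*Gpr137*, *Fkbp2* and a model named XM_219533, where 3.73% of all genes were lower), and none was a transporter of the set. These neighbours were named after their values were seen.

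**Figure D3:**
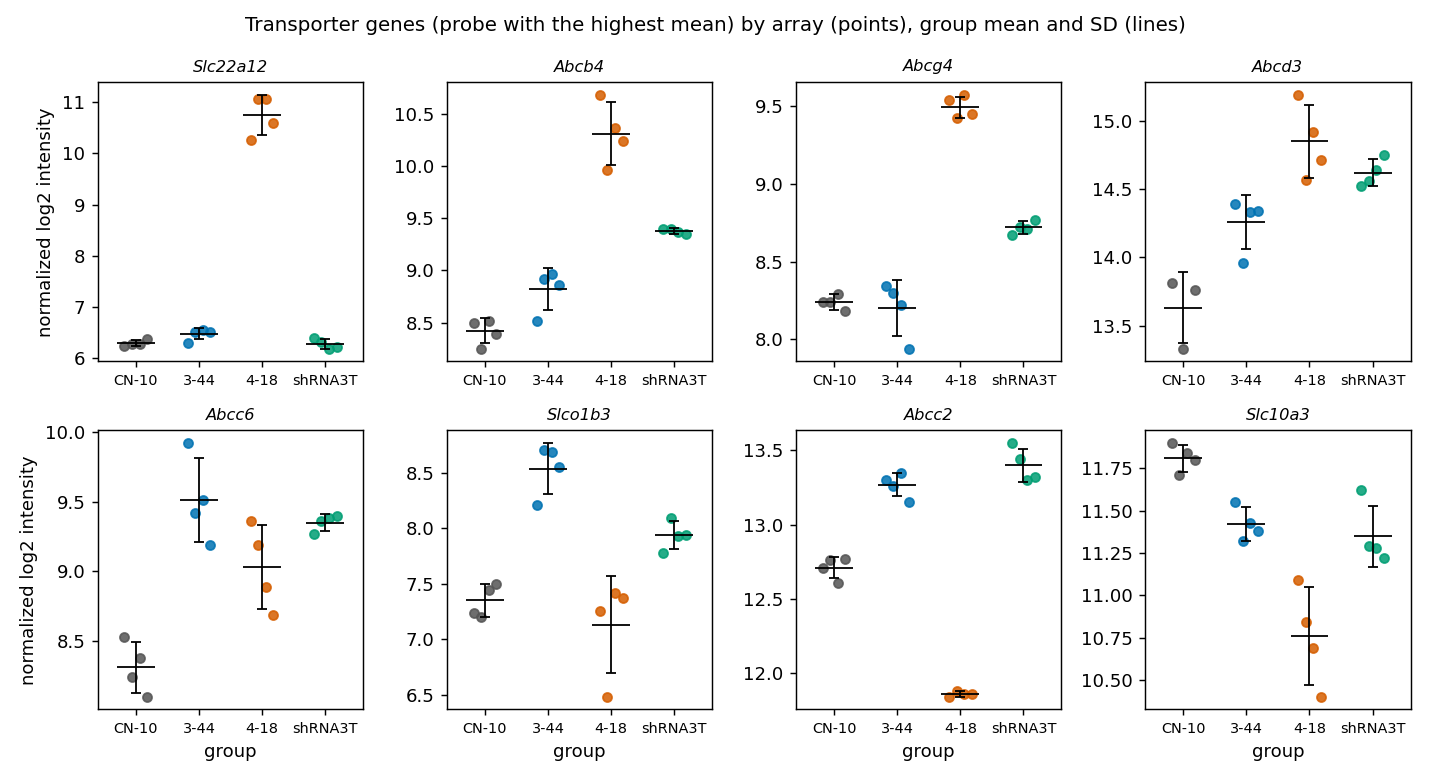
Normalized log2 intensity (y axis) of 8 members on each array (points) by group (x axis), with the group mean and SD as lines; each panel has its own scale. The 4-18 points of *Slc22a12*, between 10.27 and 11.07, lie above the other 12, and those of *Abcc2*, between 11.84 and 11.88, lie below the other 12.

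At the canalicular membrane the members moved in different directions. *Abcb4*, the flippase that delivers phosphatidylcholine to bile, was higher in 4-18 and *Abcb1b*, a multidrug resistance P-glycoprotein, was lower by 1 of its probes. The arrays of *Abcb4* read 8.5, 8.25, 8.52 and 8.39 in CN-10, 8.52, 8.92, 8.97 and 8.86 in 3-44, 10.68, 9.96, 10.36 and 10.24 in 4-18, and 9.4, 9.4, 9.37 and 9.35 in shRNA3T. The 4-18 arrays were the highest, and those of shRNA3T lay between them and 3-44. No silenced group overlapped CN-10, although the lowest 3-44 array and the highest CN-10 array both round to 8.52. The 4-18 level of *Abcb4* was 3.71-fold that of CN-10 (log2 difference 1.89, SE 0.13, limma adjusted p = 8.7e-08, two-sided exact permutation p = 0.0286, the smallest that 4 arrays against 4 allow). In shRNA3T the difference was 0.96 (SE 0.13, limma adjusted p = 0.000156), short of 2-fold, and in 3-44 it was 0.40 (95% interval 0.12 to 0.69, limma adjusted p = 0.0798). The silenced groups differed from each other as well, by 1.49 for 4-18 against 3-44 (limma adjusted p = 1.15e-06) and by 0.93 for 4-18 against shRNA3T (limma adjusted p = 0.000125). The rise in 4-18 stayed called under all 28 alternatives (1.30 to 2.09).

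*Abcb1b* and *Abcb1a* lie next to *Abcb4* on chromosome 4, in chr4:21795859-22003326 of rn4 for the outer probe ends. The *Abcb1b* probe A_64_P010925 read 16.1, 15.56, 16 and 15.34 in CN-10 and 14.75, 14.12, 15.17 and 14.95 in 4-18, with no overlap. It was 2.00-fold lower (SE 0.20 on the log2 scale, limma adjusted p = 0.00199). The probe A_64_P039888 read 16.05, 15.24, 15.84 and 15.42 in CN-10 and 15.41, 15.46, 15.2 and 14.88 in 4-18, which overlap (difference -0.40, 95% interval -0.86 to 0.05, limma adjusted p = 0.191). Both probes share 35 of their 60 bases, in capitals below, and the *Abcb4* probe is shown beside them because its gene moved the other way.
Abcb1b A_64_P010925, chr4:21912155-21912214, plus strand: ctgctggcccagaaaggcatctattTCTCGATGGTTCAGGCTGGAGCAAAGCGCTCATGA
Abcb1b A_64_P039888, chr4:21912180-21912239, plus strand: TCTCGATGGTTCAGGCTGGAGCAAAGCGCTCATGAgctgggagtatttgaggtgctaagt
Abcb4 A_44_P311096, chr4:22000547-22003326, plus strand: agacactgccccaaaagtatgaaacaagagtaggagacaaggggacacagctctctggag
The *Abcb1b* call of 4-18 sat at the 2-fold limit. It was lost under 8 alternatives, which were leaving out CN-10 replicate 1 (-0.89), CN-10 replicate 3 (-0.92), 4-18 replicate 2 (-0.79) or replicate 1 of every group (-0.89), array weights (-0.85), the corrected signal at the 75th percentile (-0.95) and the processed signal at the 75th percentile (-0.46) or median (-0.37). *Abcb1a*, a close paralog of *Abcb1b*, was dim (6.96 ± 0.13 in CN-10, SD, n = 4). It was at least 1.58-fold higher in CN-10 than in 3-44, where all 4 arrays were below the background flag (limma adjusted p = 0.00177).

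*Abcc2* (MRP2), the canalicular pump for conjugated bilirubin and glutathione conjugates, was lowest in 4-18 and highest in the groups with the shRNA3 sequence. Each of its values averages up to 10 spots of 1 probe, placed on unassigned sequence of chromosome 1 in rn4. It read 12.71, 12.76, 12.61 and 12.77 in CN-10, 11.84, 11.88, 11.86 and 11.86 in 4-18, 13.3, 13.26, 13.35 and 13.15 in 3-44, and 13.55, 13.44, 13.3 and 13.32 in shRNA3T. The 4-18 arrays lay below CN-10 and those of 3-44 and shRNA3T lay above it, without overlap. Against CN-10 the log2 differences were -0.85 in 4-18 (SE 0.07, limma adjusted p = 5.53e-07), 0.55 in 3-44 (SE 0.07, limma adjusted p = 0.000153) and 0.69 in shRNA3T (SE 0.07, limma adjusted p = 1.24e-05), each under 2-fold. Set against each other, 4-18 was 2.65-fold lower than 3-44 (limma adjusted p = 2.81e-09) and 2.91-fold lower than shRNA3T (limma adjusted p = 1.46e-09). The shRNA3 groups did not pass the test against each other (-0.14 for 3-44 against shRNA3T, 95% interval -0.29 to 0.02, limma adjusted p = 0.276).

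*Abcg5*, which with *Abcg8* exports sterols to bile, rose by 0.78 in 3-44 (SE 0.18, limma adjusted p = 0.015) and by 0.73 in shRNA3T (SE 0.18, limma adjusted p = 0.0161). In 4-18 its difference was 0.51 (95% interval 0.11 to 0.90, limma adjusted p = 0.0595). *Abcg8*, at 6.15 ± 0.07 (SD, n = 4) in CN-10, was not well above background in these cells, so that of the pair only *Abcg5* could be compared. *Abcg2*, an exporter of drugs and urate, was detected on 2 arrays of shRNA3T and on no others. *Abcb11* stayed between 6.16 and 6.31 as group means, all below background. *Slc47a1*, the organic cation exchanger MATE1, was below background on most arrays, and 1 array of 3-44 read 7.61 where its other 3 read 6.39 to 6.42.

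Of the exporters toward blood or other membranes, *Abcc6* was the member called in both 3-44 and shRNA3T. *Abcc6* is expressed mainly in liver, where it is needed for the release of ATP, and its loss causes pseudoxanthoma elasticum. It read 8.53, 8.24, 8.38 and 8.1 in CN-10, 9.92, 9.42, 9.51 and 9.19 in 3-44, 9.36, 9.19, 8.89 and 8.69 in 4-18, and 9.27, 9.36, 9.38 and 9.4 in shRNA3T. All 12 silenced arrays lay above the 4 CN-10 arrays. The rise was 2.29-fold in 3-44 (log2 1.20, SE 0.16, limma adjusted p = 0.000191), 2.06-fold in shRNA3T (1.04, SE 0.16, limma adjusted p = 0.000389) and 1.65-fold in 4-18 (0.72, SE 0.16, limma adjusted p = 0.00332), the last under the limit. In 3-44 the call held under all 28 alternatives, and in shRNA3T it was lost at 0.97 without CN-10 replicate 4. The differences between silenced groups were small, 0.15 for 3-44 against shRNA3T (95% interval -0.19 to 0.50) and -0.48 for 4-18 against 3-44 (limma adjusted p = 0.0413).

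*Abcg4*, a sterol transporter known mainly from brain, was higher in 4-18. Its arrays, the means of up to 10 spots, read 8.24, 8.24, 8.29 and 8.18 in CN-10, 9.54, 9.42, 9.57 and 9.45 in 4-18, 8.34, 8.3, 8.22 and 7.94 in 3-44, and 8.67, 8.72, 8.71 and 8.77 in shRNA3T. The 4-18 arrays stood above all others, and those of shRNA3T above CN-10 and 3-44. In 4-18 *Abcg4* was 2.39-fold that of CN-10 (log2 1.26, SE 0.08, limma adjusted p = 3.76e-08) and 2.45-fold that of 3-44 (limma adjusted p = 3.49e-08). In shRNA3T it was higher by 0.48 (SE 0.08, limma adjusted p = 0.00101). The 4-18 call was lost under 1 of 28 alternatives, the unscaled deposited values (0.74). *Abca1*, which loads cholesterol on apolipoprotein A-I, rose by 0.65 in 4-18 (SE 0.11, limma adjusted p = 0.000532), below 2-fold, and differed by -0.18 in 3-44 (95% interval -0.42 to 0.06) and -0.09 in shRNA3T (-0.34 to 0.15).

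Several ABC genes were lower in 4-18 by 1 probe while another probe of the gene read otherwise. For *Abca3*, a phospholipid transporter of lamellar bodies, the probe A_44_P1007613 read 11.97, 13.01, 12.03 and 12.85 in CN-10 and 10.29, 11, 11.94 and 11.67 in 4-18 (log2 difference -1.24, SE 0.42, limma adjusted p = 0.0423). Its probe A_43_P16685 read 9.92, 10.04, 9.66 and 9.77 in CN-10 and 10.07, 9.82, 9.46 and 10.53 in 4-18 (0.12, 95% interval -0.30 to 0.54). The first probe varied widely in every group, and its call was lost under 10 of 28 alternatives. These were the arrays of the pair alone (limma adjusted p = 0.0628), processed signals at the 75th percentile (-0.98) or median (-0.88), and leaving out CN-10 replicate 2 (-1.06) or 4 (-1.11), 4-18 replicate 1 (-0.93) or 2 (-1.16), or shRNA3T replicate 2, 3 or 4 (-1.24 each, with limma adjusted p of 0.0534, 0.0537 and 0.0538). For *Abcc1* (MRP1), an exporter of glutathione conjugates and leukotriene, the probe A_64_P117031 read 12.97, 12.8, 12.74 and 12.66 in CN-10 and 12.46, 11.87, 11.88 and 10.61 in 4-18. The log2 difference was -1.08 (SE 0.27, limma adjusted p = 0.00809), and without 4-18 replicate 4, the lowest array, it was -0.72 and no longer called. The *Abcc1* call was also lost with the arrays of the pair alone (limma adjusted p = 0.0613) and in processed signals at the 75th percentile (-0.68) or median (-0.59). The other 2 probes of *Abcc1* differed by 0.18 (95% interval -0.46 to 0.82) and 0.00 (-0.31 to 0.31), and the former lies 286 bases from the called one. *Abcc4* (MRP4), which exports bile acids and nucleotides toward blood, fell by 0.97 in 4-18 at its brighter probe (SE 0.18, limma adjusted p = 0.000943), just short of the limit. The other *Abcc4* probe gave -0.34 (95% interval -0.79 to 0.11).

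**Figure D4:**
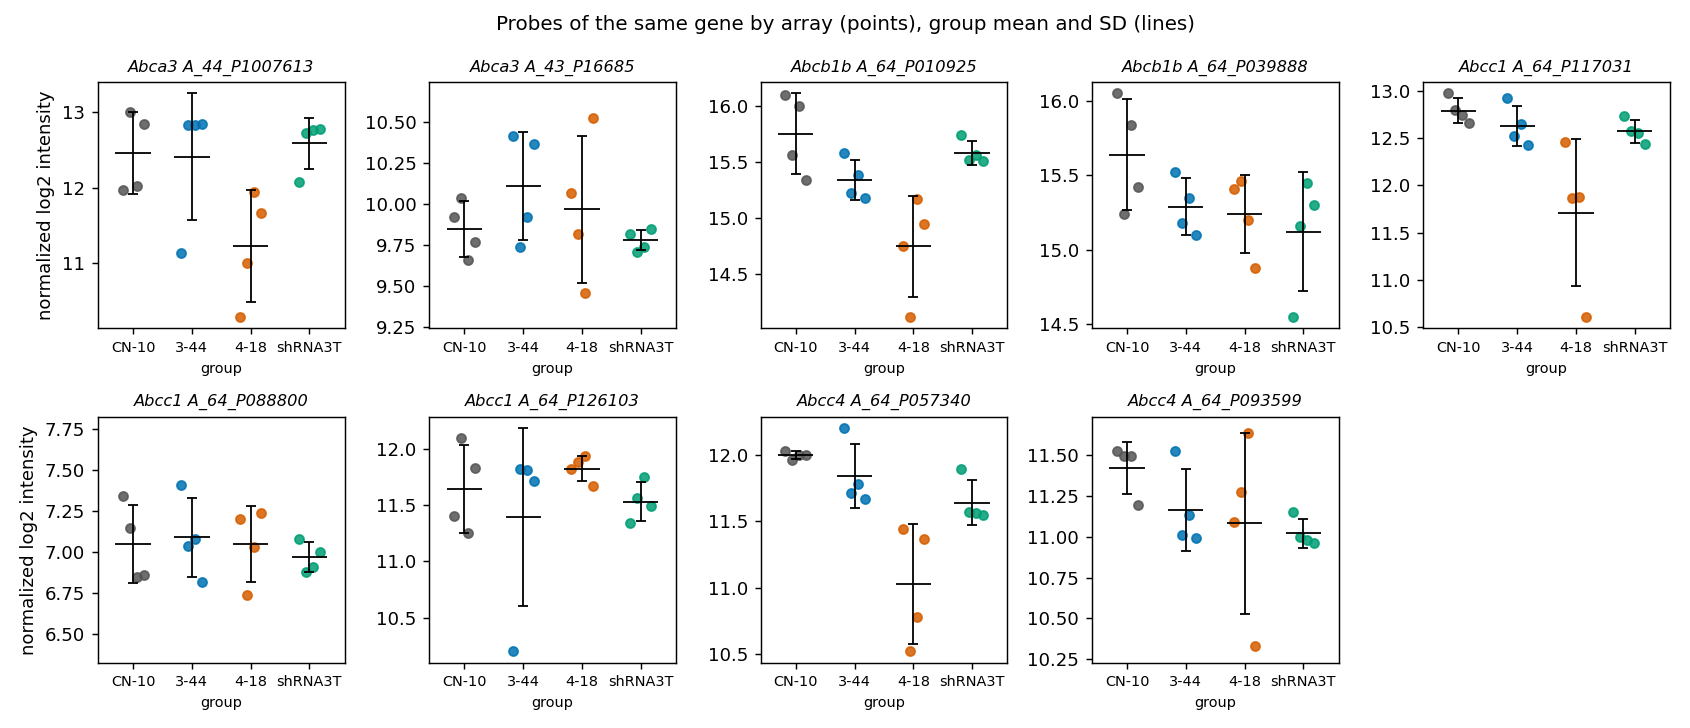
Normalized log2 intensity (y axis) on each array (points) by group (x axis) for the 9 probes of *Abca3*, *Abcb1b*, *Abcc1* and *Abcc4*, with group mean and SD as lines and a separate scale per panel. The called *Abcc1* probe has its lowest 4-18 array at 10.61, while the 4-18 arrays of another *Abcc1* probe lie between 11.67 and 11.93.

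*Abcc3* (MRP3), the basolateral exporter of glucuronides, rose slightly in 4-18 (0.31, SE 0.11, limma adjusted p = 0.0478). In 3-44 it differed by 0.29 (95% interval 0.05 to 0.52) and in shRNA3T by -0.03 (-0.27 to 0.20), neither of which passed the test.

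Among the uptake carriers, *Slco1b3* rose in 3-44. RefSeq names the gene of these probes *Slco1b2*, the liver-specific organic anion carrier of rodents that takes up bile acids, bilirubin conjugates and drugs. At the probe A_44_P328097 the arrays read 7.24, 7.2, 7.44 and 7.5 in CN-10, 8.21, 8.71, 8.69 and 8.55 in 3-44, 7.25, 6.48, 7.42 and 7.37 in 4-18, and 7.78, 8.09, 7.93 and 7.94 in shRNA3T. At the probe A_42_P627436, averaged from up to 10 spots, they read 6.87, 6.79, 6.84 and 6.83 in CN-10, 7.96, 7.96, 7.92 and 7.57 in 3-44, 6.85, 6.63, 6.83 and 6.82 in 4-18, and 7.28, 7.31, 7.3 and 7.26 in shRNA3T. At both probes the order was 3-44, then shRNA3T, then CN-10 and 4-18, which overlapped each other. The rise in 3-44 was 2.29-fold (log2 1.20, SE 0.18, limma adjusted p = 0.000552) and 2.03-fold (1.02, SE 0.08, limma adjusted p = 2.58e-06). In shRNA3T it was 0.59 (SE 0.18, limma adjusted p = 0.0413) and 0.45 (SE 0.08, limma adjusted p = 0.00211), and in 4-18 the difference was -0.22 (95% interval -0.60 to 0.17) and -0.05 (-0.23 to 0.13). Compared directly, 4-18 was 2.66-fold lower than 3-44 at the first probe (limma adjusted p = 3.63e-05) and 2.10-fold lower at the second (limma adjusted p = 3.73e-07). Both probes lost the call under 75th-percentile scaling of the corrected signal (adjusted p by limma 0.102 and 0.172) and in the unscaled deposited values (0.362 and 0.449). The second, close to the limit, also lost it without 3-44 replicate 1 (0.98), 2 (0.99) or 3 (just under 1.00), without replicate 1 of every group (just under 1.00) and with outlier spots kept (0.99).

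Both *Slco1b3* probes, each of them raised in 3-44, are shown with the 250 bases before the RefSeq start of *Slco1b2* in the GRCr8 assembly (chr4:176282334-176282583, plus strand), because among called genes with a promoter in the table this one alone held a match to the elements searched. The motifs were HNF1 (GTTAAT, any base, ATTAAC), DR1 (AGGTCA, any base, AGGTCA) and IR1 (AGGTCA, any base, TGACCT), each with up to 2 mismatches, and TATAAA without mismatch, on both strands. DR1 and IR1 share the part AGGTCA, so 1 stretch can match both. The capitals mark a TATAAA and an IR1 match, the inverted repeat read by FXR with RXR, with 1 mismatch from -85 to -73.
Slco1b3 A_44_P328097, rn4 chr4:179110787-179117464, plus strand: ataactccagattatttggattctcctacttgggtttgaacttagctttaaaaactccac
Slco1b3 A_42_P627436, rn4 chr4:179118256-179118315, plus strand: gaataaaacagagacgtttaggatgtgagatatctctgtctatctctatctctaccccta
Slco1b2 promoter, GRCr8: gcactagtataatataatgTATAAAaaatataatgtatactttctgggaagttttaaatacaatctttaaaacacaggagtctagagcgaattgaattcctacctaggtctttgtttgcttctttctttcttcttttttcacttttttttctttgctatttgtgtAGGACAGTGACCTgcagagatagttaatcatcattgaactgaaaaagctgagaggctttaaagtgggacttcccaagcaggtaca
An IR1 match was present in 1.24% of 33469 rat promoters of this length and in 3 of 78 member promoters, and a TATAAA in 12.9% of all and in 11 of 78. HNF1 and DR1 matches were present in 1.09% and 3.15% of all promoters and in 2 and 1 of the 78. A match is a description of the letters and was not tested for function.

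The other *Slco*, *Slc22a* and *Slc10a* genes, apart from *Slc22a12* and *Slc10a3*, were not called in any comparison with CN-10. *Slc22a7* (OAT2) differed by 0.01 in 4-18 (95% interval -0.46 to 0.48), 0.30 in 3-44 (-0.17 to 0.77) and 0.22 in shRNA3T (-0.25 to 0.69). *Slco1a4*, an organic anion carrier of liver and the blood-brain barrier, differed by 0.58 in shRNA3T (95% interval 0.08 to 1.08, limma adjusted p = 0.131). *Slco1a1* and *Slco2b1*, organic anion carriers of the same family, and *Slc10a1* lay near background in every group, with group means of 6.32 to 6.65, 6.36 to 6.45 and 6.34 to 6.38, except that *Slco1a1* was detected in shRNA3T.

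**Figure D5:**
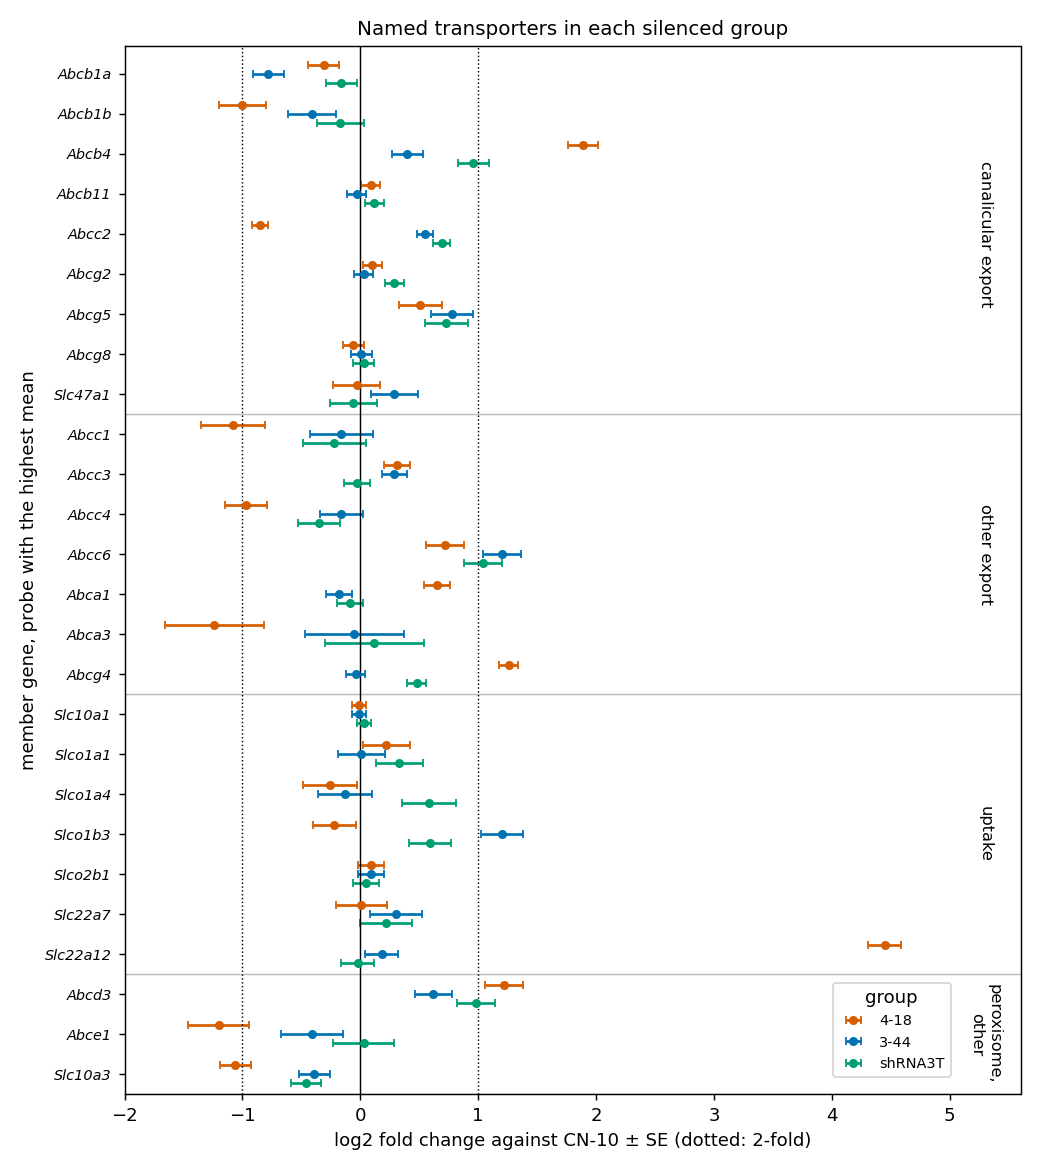
Log2 fold change against CN-10 with its standard error (x axis) for named members (y axis, grouped by role, 1 probe per gene) in 4-18, 3-44 and shRNA3T; dotted lines mark 2-fold. *Slc22a12* in 4-18 stands at a fitted 4.45 over background-level CN-10 signal (at least 21.3-fold by means as normalized here). *Abcb4* rises from 0.40 in 3-44 to 1.89 in 4-18, and *Abcc2* is below 0 in 4-18 and above 0 in the other groups.

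Of the peroxisomal transporters, *Abcd3* was higher in 4-18. *Abcd3* (PMP70), which carries branched and long-chain acyl-CoA and bile acid precursors into peroxisomes, read 13.81, 13.33 and 13.76 in CN-10, where the spot of replicate 2 was set aside as an outlier. It read 14.39, 13.96, 14.33 and 14.34 in 3-44, 15.19, 14.57, 14.92 and 14.71 in 4-18, and 14.52, 14.56, 14.64 and 14.75 in shRNA3T. All 12 silenced arrays were above the 3 of CN-10. The rise was 2.32-fold in 4-18 (log2 1.22, SE 0.16, limma adjusted p = 6.08e-05), 1.98-fold in shRNA3T (0.98, SE 0.16, limma adjusted p = 0.000811) and 1.54-fold in 3-44 (0.62, SE 0.16, limma adjusted p = 0.0261). The 4-18 call was lost in processed signals scaled to the 75th percentile (0.29, limma adjusted p = 0.358) or median (0.37, limma adjusted p = 0.258) and in the unscaled deposited values (0.47, limma adjusted p = 0.23).

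The remaining calls of 4-18 were of members that are not known as carriers of bile or drugs. *Abce1*, an ATPase that splits ribosomes and transports nothing, read 11.92, 12.27, 12.61 and 12.55 in CN-10 and 11.63, 10.65, 10.92 and 11.37 in 4-18, with no overlap. It was 2.29-fold lower than in CN-10 (log2 -1.20, SE 0.26, limma adjusted p = 0.00349) and 2.34-fold lower than in shRNA3T (limma adjusted p = 0.00333). *Slc10a3*, an orphan relative of the bile acid carriers, read 11.9, 11.71, 11.84 and 11.8 in CN-10, 11.09, 10.84, 10.69 and 10.4 in 4-18, 11.55, 11.32, 11.43 and 11.38 in 3-44, and 11.62, 11.29, 11.28 and 11.22 in shRNA3T. All silenced arrays were below CN-10. It fell by 1.06 in 4-18 (SE 0.13, limma adjusted p = 1.95e-05) and by 0.46 in shRNA3T (SE 0.13, limma adjusted p = 0.0262), and differed by -0.39 in 3-44 (95% interval -0.67 to -0.12, limma adjusted p = 0.075). Without 4-18 replicate 4 the *Slc10a3* difference of 4-18 was -0.94, under the limit. *Abce1* was under the limit in processed signals, at -0.97 with the 75th percentile and -0.87 with the median.

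The silenced groups were also set against each other. Between 4-18 and 3-44, 3 members were higher (3.16%, against 2.21% of all genes) and 2 lower (2.11%, against 3.12%). These were *Abcb4*, *Abcg4* and *Slc22a12*, and *Abcc2* and *Slco1b3*. Between 4-18 and shRNA3T, 1 was higher (1.05%, against 1.99%) and 3 lower (3.16%, against 2.87%), namely *Slc22a12*, and *Abca3*, *Abcc2* and *Abce1*. Between 3-44 and shRNA3T, which carry the same hairpin sequence, 0 were higher (0.986% of all genes) and 1 was lower (1.05%, against 1.22%), while 5 members were higher and 8 lower in limma at any size with an adjusted p under 0.05 (5.81% and 5.97% of all genes). The lower one alone passed at 2-fold with an unadjusted p under 0.05 (2.38% of all genes). The lower one was *Abca7*, a lipid transporter with a role in phagocytosis, at 8.56, 8.3, 8.36 and 7.88 in 3-44 and 9.73, 9.31, 9.59 and 9.67 in shRNA3T. Its groups did not overlap, and the log2 difference was -1.30 (SE 0.18, limma adjusted p = 0.000212). Against CN-10 *Abca7* differed by -0.59 in 3-44 (limma adjusted p = 0.0574) and rose by 0.72 in shRNA3T (limma adjusted p = 0.0146). *Abca7* is outside the rule for named genes and was named after its values were seen. Here too the splits moved with scaling. Corrected signals at the 75th percentile gave 47 members higher and 2 lower for 4-18 against 3-44 (38.4% and 2.34% of all genes) and 49 and 3 for 4-18 against shRNA3T (50.7% and 2.21%). The unscaled deposited values gave 1 and 10 (0.834% and 8.78% of all genes) and 1 and 12 (0.537% and 10.2%). Processed signals at the 75th percentile gave 10 and 4 for 4-18 against 3-44 (7.68% and 4.43% of all genes), 13 and 5 for 4-18 against shRNA3T (14.4% and 4.38%) and 1 and 5 for 3-44 against shRNA3T (1.60% and 2.27%). At the median they gave 11 and 4 (8.38% and 4.42% of all genes), 14 and 3 (17.4% and 4.04%) and 2 and 5 (1.81% and 1.99%).

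The 67 members not named by rule hold no gene called against CN-10. Their 79 probes differed by -0.80 to 0.79 in 4-18, by -0.67 to 0.85 in 3-44 and by -0.64 to 1.06 in shRNA3T. The lowest of them was *Slc22a4*, the ergothioneine carrier, in each comparison, and the highest were *Abcg3l4* in 4-18, *Abcb8*, a mitochondrial transporter, in 3-44 and *Abcd4*, a lysosomal transporter of cobalamin, in shRNA3T, the last without passing the test. *Slc22a4* and *Slc22a17* were lower with an adjusted p under 0.05 by limma in each silenced group, and all their silenced arrays lay below those of CN-10. None of the 67 was higher by this criterion in each silenced group. These genes were named after their values were seen. In either direction, 9 of the 67 genes had an adjusted p under 0.05 by limma in 4-18 (12.4% of all genes were higher and 13% lower by this criterion), 7 in 3-44 (3.85% and 4.94%) and 9 in shRNA3T (5.44% and 7.53%). Genes called against CN-10 are not among the 67 by construction.

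Genes around transport were read from lists of textbook roles. Of 12 genes of bile acid synthesis and conjugation, 6 were detected. *Cyp8b1*, the sterol 12-hydroxylase, rose in 4-18 (log2 1.09, SE 0.12, limma adjusted p = 7.5e-06), although it is outside those 6, with 3 of 4 arrays above the background flag in each group. It was the 1 of 12 called higher there, where 2.79% of all genes were. *Baat*, which conjugates bile acids to taurine and glycine, rose in 3-44 (1.52, SE 0.20, limma adjusted p = 0.000186) and shRNA3T (1.83, SE 0.20, limma adjusted p = 2.23e-05). *Cyp27a1*, the sterol 27-hydroxylase, rose in shRNA3T (1.47, SE 0.17, limma adjusted p = 4.49e-05). Of all genes, 0.746% were higher in 3-44 and 1.23% in shRNA3T. None of the 12 was called lower, against 3.73%, 0.826% and 1.25% of all genes in 4-18, 3-44 and shRNA3T.

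All 18 nuclear receptors and regulators on the array were detected, and 4 were called higher in 4-18 (2.79% of all genes), 1 in 3-44 (0.746% of all genes) and 0 in shRNA3T (1.23% of all genes), with 0 lower in each. *Nr0b2* (SHP), the repressor of bile acid synthesis, rose by 1.25 in 4-18 (SE 0.14, limma adjusted p = 1.13e-05), and *Ppara*, a receptor for fatty acids, by 1.15 (SE 0.13, limma adjusted p = 1.23e-05). *Nr5a2* (LRH-1) rose by 1.39 in 4-18 (limma adjusted p = 0.000367) and 1.07 in 3-44 (limma adjusted p = 0.00861), while its other probe gave 0.60 and 0.17. *Nr1i2* (PXR), at 1.03 in 4-18 (limma adjusted p = 6.98e-06), was the last of the 4 and was named after its values were seen. Under 2-fold, *Nr0b2* rose by 0.74 in 3-44 (limma adjusted p = 0.00382) and 0.94 in shRNA3T (limma adjusted p = 0.000371), and *Ppara* by 0.60 (limma adjusted p = 0.0104) and 0.77 (limma adjusted p = 0.00106). The median difference of this list was 0.37 in 4-18, 0.15 in 3-44 and 0.12 in shRNA3T, where the median of all probes was within 0.01 of 0.

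Of 20 other carriers and lipid handling genes, *Slc27a3*, an acyl-CoA synthetase of the fatty acid transport family, rose in 4-18 (1.29, SE 0.12, limma adjusted p = 2.69e-06). *Cd36*, the fatty acid translocase, fell by 1.30 in 4-18 (SE 0.21, limma adjusted p = 0.000347). Its other probe was not well above background in 4-18 and gives no exact difference. *Apoa1*, the acceptor of cholesterol from *Abca1*, fell by 2.12 in 4-18 (SE 0.25, limma adjusted p = 1.5e-05) and rose by 2.18 in 3-44 (SE 0.25, limma adjusted p = 5.47e-05). *Lcat*, which esterifies that cholesterol, rose by 1.09 in shRNA3T (SE 0.32, limma adjusted p = 0.0374). Of the 20, 1 was higher and 2 were lower in 4-18 (2.79% and 3.73% of all genes), 1 was higher in 3-44 (0.746%) and 1 in shRNA3T (1.23%).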

How the data were processed

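Total RNA of 16 H35 cultures was labelled with Cy3 and hybridized to rat 4x44K arrays, 4 per group, with groups and replicate numbers from the sample labels. The authors quantified spots with Feature Extraction 10.7.3.1, and the deposited intensity values are on a linear scale, not normalized, with flags for outlier, saturated and well-above-background spots. The deposited series value table has lost its decimal points and is treated as a score. With the points put back it equalled log2 of the median signal after normexp with an offset of 50 (largest difference 4e-11), without scaling. The methods name limma without settings.

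The values were background corrected by normexp (offset 50) and quantile normalized without control spots, using limma 3.58.1 in R 4.3.3. Outlier-flagged spots were dropped before the spots of a probe were averaged. The 16 arrays entered a single model of 4 group means (lmFit and eBayes), with Benjamini-Hochberg adjustment over all probes. A gene was called through any probe at 2-fold and an adjusted p of 0.05. Intervals are 95%, from the moderated SE with 12 residual degrees of freedom. Single members were also compared by two-sided exact permutation of arrays (smallest p 0.0286). A probe was taken as well above background on an array where at least 0.5 of its spots were. On simulated data for 4-18 against CN-10, with 200 of 18878 probes changed 4-fold, 196 were recovered and 2 wrongly called. Recovery of changes near the 2-fold limit, where many of the member calls lie, was not tested.

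Members and gene lists were chosen with earlier results of these data known. Named genes are those called against CN-10 and the listed canalicular, sinusoidal and peroxisomal carriers, 28 in all (2 are not reported here), each by its probe with the highest mean, and by other probes where those were called. Of the lists, at most 10 called genes with the largest change are named. Of 114 member probes, 98 carried an accession in the RefSeq gene table (GRCr8), 96 with the same symbol and 2 with another (*Slco1b3* as *Slco1b2* and *Slc22a9* as *Slc22a24*); array names were kept. Positions of 113 probes are those of the array files on rn4. No rn4 genome or annotation was used, so exons are not stated. The number of arrays limits the precision. Alternatives covered scaling, offset, filters, weights, the arrays fitted, a replicate block, the fold limit and each array left out.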

Additional observations from a re-analysis of the deposited data

Results flagged for a closer look

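Among 119 sets of 4 arrays for 30 probes of the members, 11 had an array far from the other 3 by Dixon's criterion, which chance meets in about 1 in 20 sets. Replicate 1 stood apart in shRNA3T for *Abca3* (A_44_P1007613, 12.08 against 12.72 to 12.78), *Abce1* (12.76 against 12.2 to 12.28), *Abcc4* (A_64_P057340, 11.89 against 11.55 to 11.57) and *Slc10a1* (6.29 against 6.4 to 6.42), and in 3-44 for *Abca3* (11.14 against 12.83 to 12.84) and *Abcg5* (13.13 against 12.58 to 12.64). In 3-44, replicate 2 stood apart for *Abcd3* (13.96 against 14.33 to 14.39) and replicate 4 for *Slco1b3* (A_42_P627436, 7.57 against 7.92 to 7.96) and *Slc47a1* (7.61 against 6.39 to 6.42). In 4-18, replicate 2 stood apart for *Slco1b3* (A_42_P627436, 6.63 against 6.82 to 6.85) and *Slco1a1* (7.34 against 6.25 to 6.28).

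Differences between silenced groups passed the limma test itself, which is the test of the difference between their effects against CN-10. In 4-18 against 3-44 they were a fitted 4.27 for *Slc22a12* (1 of 4 arrays of 3-44 above the background flag), 1.49 for *Abcb4*, 1.29 for *Abcg4*, -1.41 for *Abcc2*, and -1.41 and -1.07 for the probes of *Slco1b3*. In 4-18 against shRNA3T they were -1.54 for *Abcc2*, -1.36 for *Abca3*, -1.23 for *Abce1* and a fitted 4.46 for *Slc22a12*. The shRNA3T signal of *Slc22a12* was at background (at least 21.2-fold by means as normalized here). *Abca7* differed by -1.30 in 3-44 against shRNA3T. As each group lay on a slide of its own, these differences are also differences between slides.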

How the results depend on the processing

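Across 28 alternatives for the log2 differences called against CN-10, 325 of 364 values stayed called, 39 were no longer called and 0 reversed, and for *Pdrg1* all 84 values kept their direction and 83 stayed short of 2-fold and an adjusted p under 0.05 together, which the unscaled deposited values passed in 4-18 (-1.52, limma adjusted p = 0.0206). Counts of called members moved more. In the order 4-18, 3-44 and shRNA3T against CN-10, then 4-18 against 3-44, 4-18 against shRNA3T and 3-44 against shRNA3T, the counts were 9, 2, 1, 5, 4 and 1. They were 12, 6, 7, 14, 18 and 6 with processed signals at the 75th percentile and 16, 5, 8, 15, 17 and 7 at the median (chosen after seeing the data). They were 55, 1, 2, 49, 52 and 1 with corrected signals at the 75th percentile, where the offset is added before the scaling, 14, 1, 1, 11, 13 and 1 in the unscaled deposited values and 17, 9, 11, 18, 14 and 6 with a limit of 1.5-fold. The share of all genes called was not taken for the limit of 1.5-fold or for the settings that follow. Those counts can therefore not be set against a general rate. An offset of 16 gave 3 in shRNA3T, 7 in 4-18 against shRNA3T and 3 in 3-44 against shRNA3T. In shRNA3T against CN-10 the count was 2 with only probes above background, 3 with array weights and 2 with only the arrays of the pair. Without replicate 1 of every group it was 2 there, 8 in 4-18 against 3-44 and 2 in 3-44 against shRNA3T. With a single array left out the counts ran from 8 to 10, 2 to 3, 1 to 2, 5 to 7, 3 to 5 and 1 to 2, and the cause of these changes was not tested. In shRNA3T the single call of *Abcc6* became 2 calls without CN-10 replicate 1, 4-18 replicate 1 or shRNA3T replicate 1 or 2, and without CN-10 replicate 4 *Abcc6* was lost and 2 other members were called. *Abca7* was joined by 1 other member in 3-44 against shRNA3T without shRNA3T replicate 1.

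With the replicate block the count in shRNA3T was 3, and the adjusted p of *Pdrg1* by limma was 0.0176 in 4-18, 0.0108 in 3-44 and 0.0183 in shRNA3T, under 2-fold. The numbers are not known to pair the samples: of 24 pairs of same-numbered arrays, 14 had deviations that correlated above 0.1 (-0.12 to 0.48, median 0.14), and 9 of 16 arrays correlated best with their own number. The block changed no other count of members by more than 1.5 times, and the share of all genes called with it was not taken. What is not well above background limits the rest, as 42 of the 95 members passed on all 4 arrays of no group.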
